A study of Mus musculus with 5 samples.

Results

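Chil1, Chil3, Chil4 and Chil5 are mouse chitinase-like genes, and Chia1 encodes an active chitinase. All were followed in 3′ RNA sequencing of Lin-cKit+Sca1- (KL) bone marrow cells. They were taken by gene symbol, with all 5 present among the 52550 genes of the count table, and 4 of the 5 passed the filter on low counts that left 11766 genes for testing. The members were selected on the difference between genotypes measured in these same counts, in which Chil3 and Chil4 went in opposite directions. Their fold changes are therefore given with standard errors as a description and without a test.

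The libraries came from 3 BcorΔE9-10 samples (genotype scl-Cre-ERT +; Bcorfl/y) and 2 BcorWT samples (scl-Cre-ERT +; Bcorwt/y). Both groups carried the Cre-ERT transgene and had received 1 mg of tamoxifen by intraperitoneal injection on each of 5 days at 3 to 6 months of age, and bone marrow was taken from male animals 20 weeks later. Tamoxifen switches the recombinase on in haematopoietic stem cells, where the Scl (Tal1) element drives it, so BcorΔE9-10 KL cells lack the loxP-flanked Bcor exons as descendants of recombined stem cells, and cells from unrecombined stem cells may remain among them. The labels do not say whether each library is a single mouse, and the strain background of each group is not given in the sources used here, so p-values measure the spread between these libraries. Fold changes are BcorΔE9-10 over BcorWT.

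Chitinases of glycoside hydrolase family 18 cut chitin, the polymer of fungal walls and arthropod cuticles. The chitinase-like proteins keep the fold and are secreted, but have lost the catalytic residue and act as lectins. In mice, Chil3 (Ym1) is abundant in granulocyte precursors and neutrophils of the bone marrow and is a standard marker of macrophages exposed to interleukin-4, whereas its near copy Chil4 (Ym2) is known mainly from lung and stomach in type 2 inflammation. Chil1 encodes the mouse counterpart of human YKL-40, a protein of neutrophil granules and macrophages, and Chia1 encodes acidic mammalian chitinase, an active enzyme of stomach and lung.

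All members but Chil1 sit in a cluster on chromosome 3 of GRCm38 (mm10), and Chil1 lies on chromosome 1 (chr1:134182176-134190181, plus strand). Chil5 (chr3:106016919-106032814, minus strand) and Chia1 (chr3:106113229-106132120, plus strand) precede Chil3 (ENSMUSG00000040809.10, chr3:106147554-106167564, minus strand) in coordinate order. Chil4 (ENSMUSG00000063779.6, chr3:106201490-106219507, minus strand) follows Chil3 after a gap of 33925 bases. The longest annotated protein-coding transcripts of Chil3 and Chil4, each 1539 bases long, were identical at 1452 of 1538 aligned bases (94.4%). Every other pair of members was further apart, from 57.0% for Chil1 with Chil4 to 76.3% for Chil5 with Chia1. The annotated exons cover 1632 bases for Chil3 and 2817 for Chil4, and exon bases outside these transcripts were not aligned.

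Because the library method reads transcript ends, the ends decide whether the copies can be told apart. The coding part of the last exon is shown for both, 5′ to 3′ on the minus strand (GRCm38, Chil3 chr3:106147853-106147872 and Chil4 chr3:106201777-106201808), with capitals for bases that differ or have no counterpart:
Chil3: gttgcaaggGcCcttatTga
Chil4: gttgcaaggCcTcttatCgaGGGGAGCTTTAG
The sequences differed at 3 of 20 aligned bases, and the Chil4 reading frame ran on to a later stop codon. Counting gaps, 32 of the 88 differences between the transcripts lay in the last 300 bases. No window of 50 or 75 bases within those 300 bases was identical between the copies, and the median window of 50 bases held 5 differences. Of the 271 words of 30 bases in each end, 11 (4.06%) were shared, and no other gene held any of them. The longest identical stretch, 136 bases, began 375 bases from the end, so that 52 of 426 windows of 75 bases (12.2%) within the last 500 bases were identical. Reads were 75 bases long before trimming, and how the authors' counting treated reads that align to several places is not given in the sources used here.

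**Figure D1:**
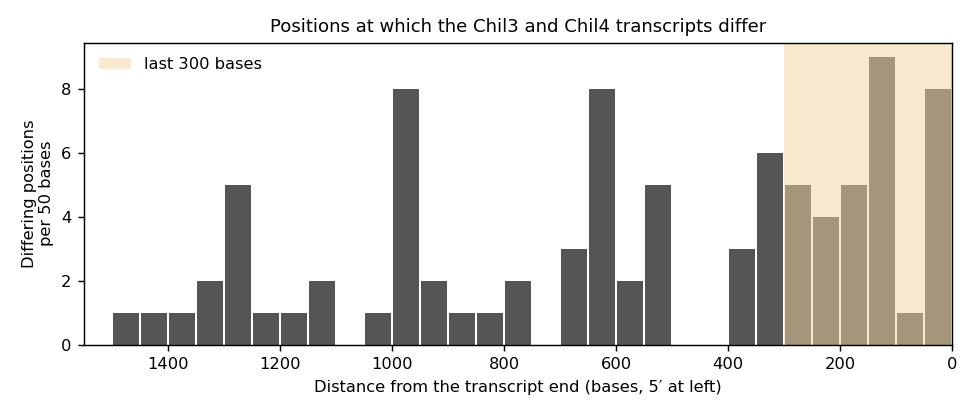
Number of positions at which the Chil3 and Chil4 transcripts differ, in bins of 50 bases against the distance from the transcript end (5′ at left), with the last 300 bases shaded. Of the 88 differences, 32 fall in the shaded stretch, and the empty bins between 400 and 500 bases from the end belong to the longest identical stretch.

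Chil3 was lower and Chil4 higher in BcorΔE9-10 KL cells. Chil3 was read 14193, 10287 and 14389 times in BcorΔE9-10 replicates 1 to 3 and 16235 and 19731 times in BcorWT replicates 1 and 2. In CPM, that is counts for every 1e+06 counts of a library after TMM scaling, these were 1674, 1676 and 1679 CPM against 2301 and 2918 CPM. The 3 BcorΔE9-10 values were almost equal and lay below both BcorWT values, which differed from each other by 1.27-fold (exact 95% interval 1.24 to 1.29, counting error only). The means were 1676 ± 2.14 CPM (SD, n = 3) and 2610 ± 436 CPM (SD, n = 2). The fitted log2 fold change was -0.63 (SE 0.0965), a 1.55-fold higher level in BcorWT. By mean CPM, Chil3 ranked 34 among the 11766 genes tested.

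For Chil4 the counts were 579, 494 and 560 in BcorΔE9-10 and 17 and 66 in BcorWT. These corresponded to 68.3, 80.5 and 65.3 CPM against 2.41 and 9.76 CPM. Every BcorΔE9-10 library was far above both BcorWT libraries, and the spread was wider in BcorWT, where replicate 2 exceeded replicate 1 by 4.05-fold (exact 95% interval 2.35 to 7.37). The means were 71.4 ± 8.02 CPM (SD, n = 3) and 6.09 ± 5.20 CPM (SD, n = 2). The log2 fold change was 3.86 (SE 0.391), or 14.5-fold, rank 32 among the highest of all genes tested. The size depended on the BcorWT library used, with a log2 fold change of 2.84 without BcorWT replicate 1 and 4.84 without BcorWT replicate 2, the remaining library being assumed to vary like the other group. Of the 4 members tested, Chil4 was the member with all BcorΔE9-10 libraries above both BcorWT libraries, an arrangement shown by 22.6% of all genes tested, and Chil3 the member with all of them below (20.3% of all genes). Across the whole table limma called 6.02% of genes higher and 4.09% lower in BcorΔE9-10. In a bulk library, fewer cells of a type and less RNA per cell cannot be told apart.

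**Figure D2:**
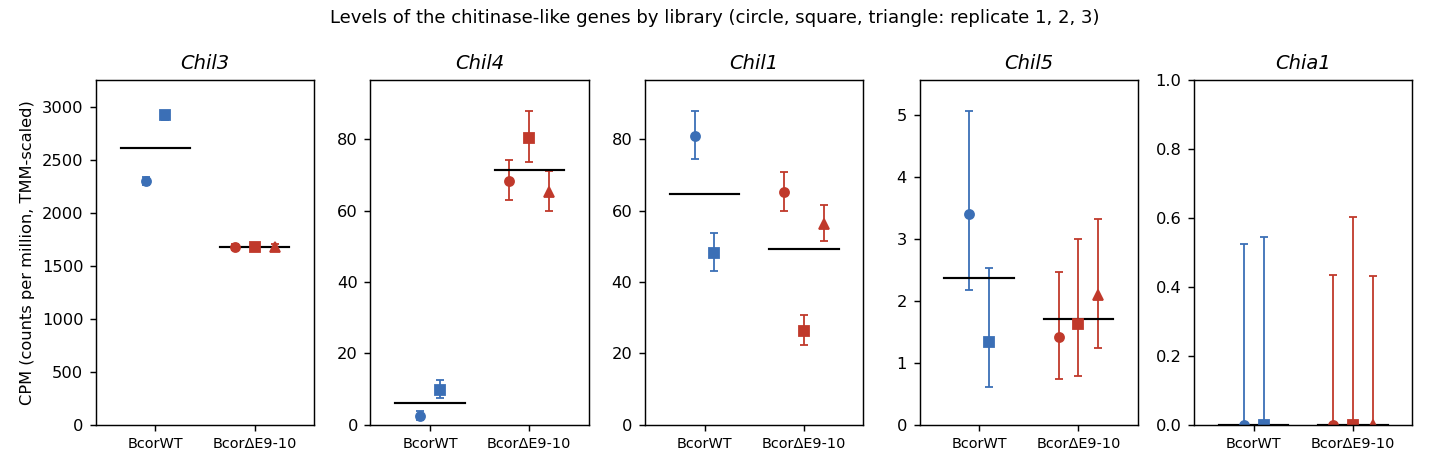
Level of each gene in CPM (linear axes from 0, a different scale in each panel) in the 2 BcorWT and 3 BcorΔE9-10 libraries, with the group mean as a bar and exact 95% Poisson intervals, which cover counting error only. Chil3 is lower and Chil4 higher in every BcorΔE9-10 library, Chil1 and Chil5 overlap between the groups, and Chia1 has 0 counts throughout.

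The ratio of the copies within each library needs no scaling between libraries, but it restates the contrast on which the members were selected and is given as a description, with intervals that cover counting error only. Chil4 counts were 4.08% (exact 95% interval 3.75 to 4.43), 4.80% (4.38 to 5.26) and 3.89% (3.57 to 4.24) of Chil3 counts in the BcorΔE9-10 libraries. In the BcorWT libraries they were 0.105% (0.0610 to 0.168) and 0.334% (0.259 to 0.426). Within BcorΔE9-10 the interval of replicate 2 overlapped that of replicate 1 but not that of replicate 3, and the BcorWT intervals did not overlap each other. The group means were 4.26 ± 0.481% (SD, n = 3) and 0.220 ± 0.162% (SD, n = 2).

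The summed level of both copies followed Chil3. It was 1743, 1756 and 1744 CPM in BcorΔE9-10 and 2304 and 2928 CPM in BcorWT, that is 1748 ± 7.35 (SD, n = 3) against 2616 ± 441 CPM (SD, n = 2). The gain in mean Chil4 was therefore small beside the deficit in mean Chil3, and the total stayed below both BcorWT libraries.

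**Figure D3:**
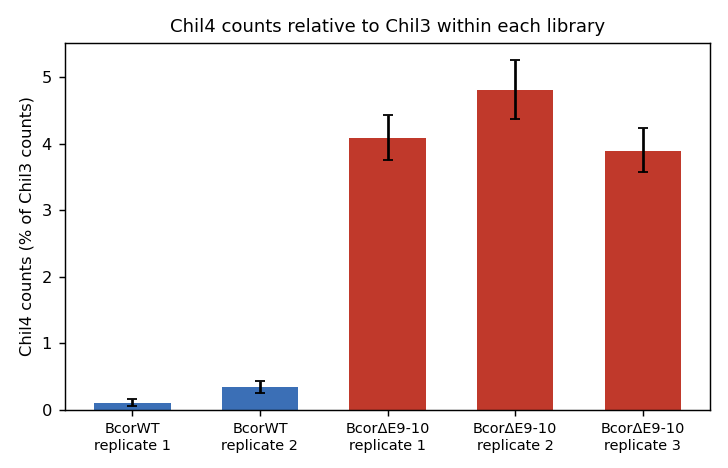
Chil4 counts as a percentage of Chil3 counts in each library (bars from 0, exact 95% intervals). The BcorΔE9-10 libraries sit between 3.89 and 4.80% and the BcorWT libraries at 0.105 and 0.334%.

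The remaining members showed no separation between genotypes. Chil1 had 552, 162 and 483 counts in BcorΔE9-10 and 571 and 326 in BcorWT, or 65.1, 26.4 and 56.3 CPM against 80.9 and 48.2 CPM. The groups overlapped, since libraries of the same genotype differed by up to 2.47-fold (BcorΔE9-10 replicate 1 over replicate 2, exact 95% interval 2.07 to 2.96). The means were 49.3 ± 20.3 CPM (SD, n = 3) and 64.6 ± 23.1 CPM (SD, n = 2), with a log2 fold change of -0.40 (SE 0.277). Chil1 did not share the near equality of Chil3 among the BcorΔE9-10 libraries.

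Chil5, another chitinase-like gene, was close to the detection limit, with 12, 10 and 18 counts in BcorΔE9-10 and 24 and 9 in BcorWT. Its values of 1.42, 1.63 and 2.10 CPM against 3.40 and 1.33 CPM overlapped, and the log2 fold change was -0.34 (SE 0.568). Without BcorWT replicate 1 it turned to 0.32, so no direction can be given. In its last 300 bases, 33.2% of the words of 30 bases are shared with the antisense gene Gm42722, which had a total of 1 count over the 5 libraries. Chia1 had 0 counts in all 5 libraries, where a floor of 3 counts corresponds to 0.350 to 0.489 CPM. The two-sided exact 95% Poisson intervals at 0 counts reach 0.430 to 0.601 CPM.

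Per kilobase of annotated exon, the order of levels changed between the genotypes below Chil3. In BcorWT the means were 1599 CPM per kb for Chil3, 23.0 for Chil1, 2.16 for Chil4 and 1.57 for Chil5. Chil4 and Chil5 were not separated there, with ranges of 0.855 to 3.47 and 0.882 to 2.25 CPM per kb. In BcorΔE9-10 they were 1027 for Chil3, 25.3 for Chil4 and 17.6 for Chil1, with Chil5 at 0.938 to 1.39, and the ranges of Chil4 (23.2 to 28.6) and Chil1 (9.41 to 23.2) met at their edges. Per kb, Chil4 thus moved from near the level of Chil5 to near that of Chil1, while Chil3 stayed far above every other member in every library. Since the method reads transcript ends, counts need not grow with length, and the order was the same without division by length. Without that division, all Chil4 values in BcorΔE9-10 (65.3 to 80.5 CPM) lay above those of Chil1 (26.4 to 65.1 CPM).

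The promoters of Chil3 and Chil4 were compared because the copies moved in opposite directions. The bases before the GENCODE start of each transcript are shown, with the sequence from RefSeq (GRCm38.p6, minus strand, Chil3 chr3:106167565-106167786 and Chil4 chr3:106219508-106219729), with capitals for bases that differ or have no counterpart:
Chil3: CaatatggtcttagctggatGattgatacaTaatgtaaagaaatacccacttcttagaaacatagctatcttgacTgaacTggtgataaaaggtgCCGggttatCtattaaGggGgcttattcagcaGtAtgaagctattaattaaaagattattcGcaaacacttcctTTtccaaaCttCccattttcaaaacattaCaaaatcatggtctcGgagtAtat
Chil4: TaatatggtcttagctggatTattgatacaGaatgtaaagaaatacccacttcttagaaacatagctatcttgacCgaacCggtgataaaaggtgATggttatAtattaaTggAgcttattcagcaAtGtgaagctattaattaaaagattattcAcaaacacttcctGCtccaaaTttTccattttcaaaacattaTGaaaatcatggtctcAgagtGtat
They were identical at 201 of 221 aligned bases (91.0%), and the first 50 bases after the start were identical throughout. Motifs of 4 factors were searched on both strands in windows of 300 bases around the RefSeq start of each gene. The C/EBP pattern TTNCNNAA occurred 3 times in the windows of Chil3, Chil4 and Chil6, the last a gene with 0 counts in every library, once each in those of Chil1 and Chil5 and not in that of Chia1. Of all 32851 windows 40.7% held at least 1 match and 3.6% held 3 or more. In the bases shown, the copy beginning 37 bases before the Chil3 start and 38 before the Chil4 start was the same in both. Each of the others shown held at least 1 differing base. The TATA box TATAAAA, found in 5.48% of windows, occurred once in each, beginning 3 bases before the GENCODE start and running across it, and once in the Chia1 window. For Chil3 the RefSeq start is the same base, while that of Chil4 lies 28 bases further on, 25 bases after the last base of the motif. The STAT6 pattern, TTC and GAA with 4 bases between (6.95% of windows), and the PU.1 pattern GAGGAAG (13.6%) were in none of the members' windows, and none of the matches shown overlapped another motif. These matches are letters in a window and say nothing of factor binding.

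Genes around the cluster were examined next. Of 13 named genes within 500 kb of Chil3 and Chil4, members apart, 8 were tested. By limma 0 of the 8 passed an adjusted p of 0.05, 0 had an unadjusted p under 0.05, and edgeR and DESeq2 also called 0, against 10.1% of all genes tested. Their log2 fold changes ran from -0.77 to 0.36, with a median of 0.13. The value of -0.77 belonged to Ovgp1, a family 18 gene with 14, 0 and 6 against 11 and 3 counts and a standard error of 1.08. Chil6, the chitinase-like gene on the other side of Chil4, had 0 counts in all libraries, like Inka2 and Pifo.

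**Figure D4:**
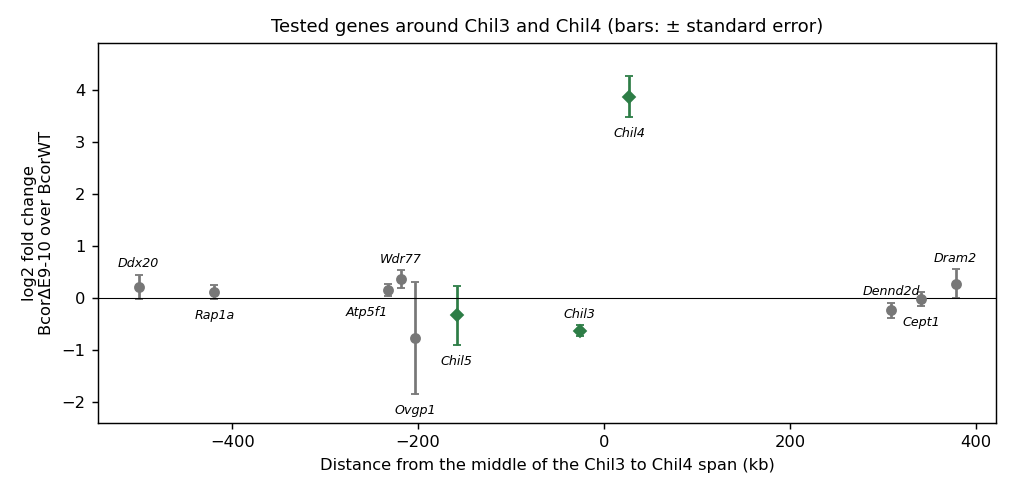
Log2 fold change (BcorΔE9-10 over BcorWT) with its standard error for the tested genes around Chil3 and Chil4, against distance in kb from the middle of the Chil3 to Chil4 span (members as green diamonds). The neighbours lie between -0.77 and 0.36, and Chil4 stands at 3.86.

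Other genes of glycoside hydrolase family 18 were low. Of 6 listed (Chit1, Chid1, Ctbs, Ovgp1, Chil6 and Chia2), 4 were tested, and 1 of these was called lower, against 4.09% of all genes. Chit1, which encodes the chitinase chitotriosidase, had 8.85, 4.40 and 7.47 CPM in BcorΔE9-10 and 13.7 and 13.2 CPM in BcorWT. All BcorΔE9-10 libraries lay below both BcorWT libraries, and limma gave a fold change of -0.96 on the log2 scale with SE 0.280 and adjusted p = 0.0387. This call was lost with DESeq2, total counts as the only scaling, drawn-down counts or the GC trend removed, and without BcorΔE9-10 replicate 2 or 3 or either BcorWT replicate (adjusted p from 0.0519 to 0.122). As with Chil1, the lowest value was in BcorΔE9-10 replicate 2. The other tested genes, Chid1, Ctbs and Ovgp1, did not pass. Under the alternatives, Chid1 was called lower with drawn-down counts (adjusted p = 0.0239) and without BcorWT replicate 1 (adjusted p = 0.0259), and Ctbs with the GC trend removed (adjusted p = 0.00789). In the fit as reported all 4 fold changes were negative, with a median of -0.77 beside 0.0043 for all genes tested.

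Genes of neutrophil granules and maturation, the programme in which Chil3 is best known in bone marrow, were called lower more often than higher. All 37 listed genes were tested, with 15 called lower and 1 higher (43.2% called, against 10.1% of all genes), a median log2 fold change of -0.37 and 10 positive fold changes. Lrg1, a glycoprotein of neutrophil granules, was at 121 to 152 CPM in BcorΔE9-10 and 268 and 306 CPM in BcorWT (log2 fold change -1.02, SE 0.123, limma adjusted p = 9.82e-05). Ifitm6 was also called, with a log2 fold change of -0.99 and a limma adjusted p of 7.95e-05 (SE 0.115). Ly6g, a surface antigen of mature neutrophils, had a log2 fold change of -0.97 and a limma adjusted p of 0.00204 (SE 0.170). Among the genes called lower, Cd177, Lyz2 and Ly6g have 71.2%, 34.7% and 7.75% of their end words in other genes, so their counts are less certain. The gene called higher was Anxa1, encoding the anti-inflammatory protein annexin A1, at 682, 847 and 731 CPM against 193 and 266 CPM (log2 fold change 1.73, SE 0.133, limma adjusted p = 2.89e-06). The list was not lower throughout. Genes not called included Mpo (log2 fold change -0.09), Elane (0.12), Prtn3 (-0.17), Ctsg (0.33) and Camp (0.25). The fold change of Chil3 lay within the range of the genes called lower, and that of Chil4 outside the range of the whole list. The summed level of the list was 168165 to 193969 CPM in BcorΔE9-10 and 239881 and 251455 CPM in BcorWT. The largest contributors were S100a8, at 68004 to 80410 against 116998 and 109703 CPM, and S100a9, at 38280 to 44133 against 57537 and 53133 CPM. With total counts as the only scaling, the median of all genes shifted by 0.14, and genes called across the table became 1210 higher and 197 lower in place of 708 and 481. The list then held 12 genes called lower and 4 higher, and Chil3 was at -0.48.

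Interleukin-4 and interleukin-13 induce Chil3 in macrophages through the receptor chain Il4ra and the factor Stat6. Of 18 genes of that pathway 14 were tested, and limma called 0 (10.1% of all genes called), with 4 at an unadjusted p under 0.05. DESeq2 also called 0, and edgeR called 1, the kinase gene Jak3, whose annotated end is shared wholly with the overlapping gene Insl3. The median log2 fold change was -0.19. The ligands were hardly detected, with 0 counts of Il13 and 2 counts of Il4 in a single BcorWT library, and the receptor chain Il13ra2 had 0 counts. Stat6 had 26.2 to 28.5 CPM in BcorΔE9-10 and 30.8 and 30.9 CPM in BcorWT (log2 fold change -0.16, SE 0.161, limma adjusted p = 0.563).

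Other genes listed as markers of interleukin-4 stimulated macrophages were mostly at few counts or did not pass the test. Of 22 listed genes 21 were in the table and 9 were tested, and 1 was called, lower (11.1% called, near the 10.1% of all genes). This was Myo1f, which encodes a myosin of leukocytes in general and is not particular to interleukin-4 stimulated macrophages. Its log2 fold change was -0.52 (SE 0.127, limma adjusted p = 0.0170), which was also the median of the 9. Retnla had a total of 2 counts, Mrc1 had 1 to 7 counts per library, and Pparg and Fcrls had 0. The call of Myo1f was absent with total counts alone and without BcorΔE9-10 replicate 1 or BcorWT replicate 1, the last giving a log2 fold change of -0.32.

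Among 11 transcription factors known for Chil3 or for granulocyte and macrophage expression, 9 were tested, of which 1 was called higher and 1 lower (6.02% and 4.09% of all genes tested). Cebpb, which drives granulocyte output in emergency, was at 43.2, 71.7 and 55.9 CPM in BcorΔE9-10 and 20.6 and 24.0 CPM in BcorWT (log2 fold change 1.31, SE 0.217, limma adjusted p = 0.00128). Spi1, encoding PU.1, was at 156, 146 and 168 CPM against 229 and 205 CPM (log2 fold change -0.47, SE 0.114, limma adjusted p = 0.0154). The groups did not overlap for either gene. Cebpb, like Stat6, overlaps a gene on the other strand (Tmem189 and Nab2), whose reads may be included. The call of Spi1 was lost with total counts alone, with the GC trend removed, and without BcorΔE9-10 replicate 1 or BcorWT replicate 1 (limma adjusted p from 0.0524 to 0.109), while that of Cebpb was kept under every setting run. The median over the 9 was -0.16.

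Of 7 surface partners of chitinase-like proteins, 4 were tested and 1 was called, against 10.1% of all genes. This was Lgals3, which encodes galectin-3, lower at 101, 96.7 and 96.1 CPM against 177 and 114 CPM (log2 fold change -0.54, SE 0.155, limma adjusted p = 0.0370). The call was lost with total counts alone, with the GC trend removed and on leaving out any BcorΔE9-10 library or BcorWT replicate 1, and without the last of these the log2 fold change was -0.22. Il13ra2 and Ptgdr2 had 0 counts. The median of the 4 was 0.01.

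**Figure D5:**
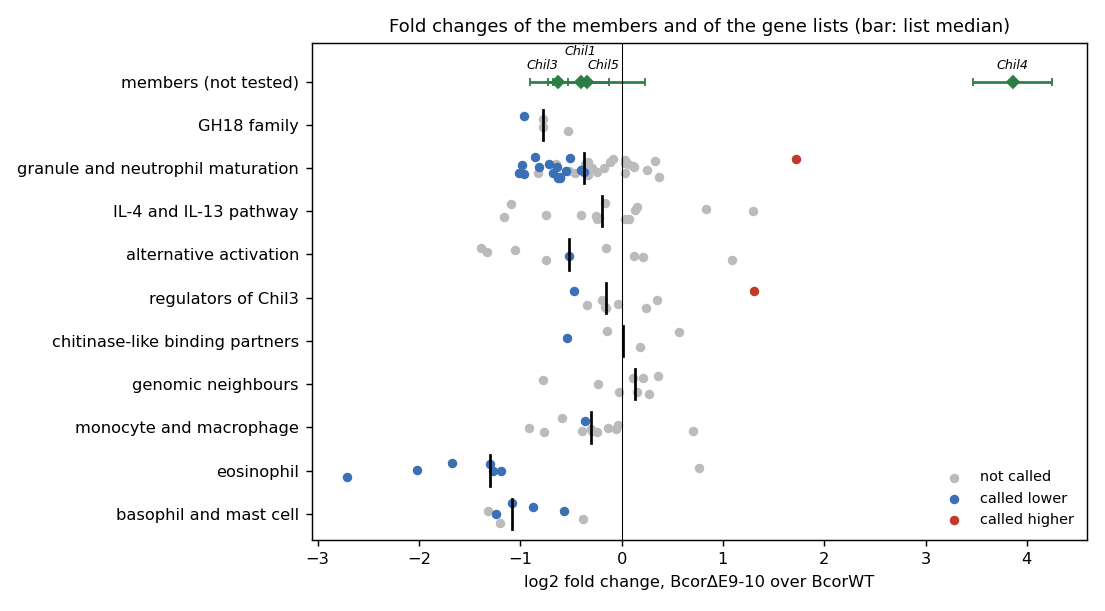
Log2 fold change of each tested gene in the lists (points, with vertical position within a list drawn at random), coloured by the limma call, with the list median as a bar and the members above with standard errors and no test. Of the granule and maturation genes 15 are called lower, and Chil4 at 3.86 lies beyond every point.

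Genes of the sort gate and markers of other cell types were read in the same libraries. Kit, the antigen of the gate, had 307 to 452 counts in BcorΔE9-10 and 128 and 132 in BcorWT (log2 fold change 1.43, SE 0.173, limma adjusted p = 9.82e-05), and Ly6a, which encodes Sca-1, had 3 to 8 counts. Ly6g and Itgam, encoding antigens that lineage depletion commonly targets, were present in all libraries, with 1272 to 4012 and 651 to 1132 counts. The 9 eosinophil markers summed to 289 to 452 CPM in BcorΔE9-10 and 829 and 983 CPM in BcorWT, with 6 of 7 tested called lower by limma (4.09% of all genes). The seventh, Siglecf, named after its values were seen, was at 11.6 to 13.6 against 9.07 and 6.21 CPM (log2 fold change 0.77, limma adjusted p = 0.0831), and Ccr3 had 0 or 1 count per library. Of these, Ear1, Ear2 and Ear6 share end sequence with one another, so their counts are uncertain. The 10 basophil and mast cell markers summed to 327 to 434 against 593 and 768 CPM, with 4 of 7 called lower by limma (4.09% of all genes) and Tpsb2 at 0. The 19 monocyte and macrophage markers summed to 1321 to 1433 against 1693 and 1710 CPM, with 1 of 12 called lower (8.33%, against 4.09% of all genes), Marco at 0, and C1qa and C1qb at 21 and 12 counts in BcorWT replicate 2 but at most 1 count elsewhere. The gene called was Ly6c2, at 965, 1005 and 918 CPM against 1226 and 1245 CPM, and the other 18 genes summed to 403 to 428 against 484 and 448 CPM. Its call was lost with total counts alone and without any single library except BcorΔE9-10 replicate 2, and 46.1% of its end words are shared with Ly6a, Ly6c1, Ly6g and Ly6i, so its counts are uncertain. The 8 B cell markers summed to 10.6 to 20.9 against 7.54 and 13.3 CPM with 0 of 5 called by limma (10.1% of all genes), edgeR or DESeq2 and 1 at an unadjusted p under 0.05. The 10 erythroid markers summed to 106 to 234 against 61.5 and 96.6 CPM, and limma and DESeq2 called 1 of 6 higher, Car1 (6.02% of all genes), while edgeR called 3, adding Hba-a1 and Hbb-bt. The limma call of Car1 was lost with the GC trend removed and without any single library except BcorΔE9-10 replicate 1. Globin genes share end sequence with their copies (89.7% of the words of Hba-a1 and 41.3% of Hbb-bs). The part of these shifts in the values of Chil3 and Chil4 was not tested. Bcor itself had 196, 168 and 185 counts in BcorΔE9-10 and 83 and 109 in BcorWT (log2 fold change 0.78, SE 0.218, limma adjusted p = 0.0313), but its transcript end lies outside the removed exons and checks nothing. This call was lost with the GC trend removed (log2 fold change 0.39), without BcorWT replicate 1 (0.54) and without any BcorΔE9-10 library (0.70 to 0.84).

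The genes with the pattern most like each copy were ranked by the root mean square distance of centred log2 CPM over the 5 libraries, among 6794 genes whose mean log2 CPM reached 3. Closest to Chil3 were Pdk3 (distance 0.035), Hspd1 (0.049), Ccne1 (0.050), Mif (0.056) and Aldh1b1 (0.057), against a spread of 0.33 of Chil3 about its own mean. Pdk3, a kinase of pyruvate dehydrogenase, was at 62.3, 62.9 and 64.0 CPM in BcorΔE9-10 and 82.4 and 105 CPM in BcorWT, the same order of libraries as Chil3. Closest to Chil4 were Snrpf (0.25), Tap2 (0.30), Gtpbp2 (0.56), Rnf130 (0.57) and Ldb1 (0.59), against a spread of 1.99. Snrpf, a core protein gene of the spliceosome, was at 97.8, 164 and 116 CPM against 5.95 and 17.2 CPM. Tap2, of the peptide transporter for MHC class I, was at 108, 124 and 114 CPM against 5.67 and 11.8 CPM. Both shared with Chil4 the lowest value in BcorWT replicate 1 and the highest in BcorΔE9-10 replicate 2. Other-strand genes overlap Hspd1, Snrpf, Tap2 and Ldb1, and 54.2% of the end words of Mif occur in other genes.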

How the data were processed

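Gene expression was measured by QuantSeq 3′ mRNA sequencing of sorted KL cells, in 3 BcorΔE9-10 and 2 BcorWT libraries grouped by their titles. Per the labels and methods, the authors demultiplexed reads with bcl2fastq, trimmed them with cutadapt, aligned them to mm10 (GRCm38) with HISAT2 and counted them per gene with featureCounts of Subread (version 1.5.0-p3). The authors deposited unnormalised read counts for each gene, and the options for strand and for reads aligning to several places are not given in the sources used here. Total counts were 5998924 to 8303999 per library, and the exact intervals reflect counting error alone, as reads rather than molecules were counted.

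Symbols, spans and transcripts came from GENCODE M21 (GRCm38), which named 52403 of 52550 gene identifiers and gave 95.0% of genes the same span. Genes were kept with filterByExpr (minimum count 10, minimum total 15), scaled by TMM and tested two-sided in R 4.3.3 with voom and limma (3.58.1), with Benjamini-Hochberg adjustment over all 11766 genes and a threshold of 0.05. edgeR's quasi-likelihood test (4.0.16), DESeq2 (1.42.0), other scalings and filters, counts drawn down to the smallest library, removal of a GC trend (lowess span 0.3), a replicate block, the sum of both copies and leaving out each library were alternatives, and the fits were tested on simulated data. Within groups, libraries differed beyond sampling noise (chi-square per gene 5.94 to 11.1), so none was treated as a repeat deposit of another.

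The members and gene lists were chosen with earlier results of these data known. Named genes were the members, up to 3 called genes with the largest rise and 3 with the largest fall per list, undetected list genes, markers, neighbours, and the 5 genes most like Chil3 and Chil4. Stat6, Jak3, Chid1, Ctbs, Ovgp1, Mpo, Elane, Prtn3, Ctsg, Camp, S100a8, S100a9, Cd177 and Lyz2 were named after their values were seen. Promoter windows were from RefSeq and matched all 5 members by symbol.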

Additional observations from a re-analysis of the deposited data

How the results depend on the processing

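The log2 fold change of Chil3 was -0.48 with total counts alone, and ran from -0.69 to -0.48 over 10 alternative settings and from -0.81 to -0.45 on leaving out single libraries. That of Chil4 ran from 3.54 to 4.16 over 9 settings and from 2.84 to 4.84 on leaving out libraries, and the difference between groups in Chil4 as a percentage of Chil3, 4.04 points, from 3.77 to 4.22. Chil1 ran from -0.76 to -0.03, and Chil5 from -0.97 to 0.32, the positive value without BcorWT replicate 1. Genes called, 1189, ran from 1010 to 1454 over the settings and from 558 (without BcorWT replicate 1) to 1200 on leaving out libraries, with 774 without BcorΔE9-10 replicate 2 and 723 without BcorΔE9-10 replicate 3.

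The family 18 genes called became 0 with DESeq2 and with total counts alone, and the alternative activation and partner genes also 0 with total counts alone. Interleukin-4 and interleukin-13 pathway genes became 1 with edgeR, with at least 10 counts in every library and with drawn-down counts. Alternative activation genes became 2 with drawn-down counts and 3 with the GC trend removed, where partner genes became 0 and regulators 1. Leaving out libraries gave 0 to 1 family 18, 0 to 2 pathway, 0 to 2 alternative activation, 0 to 1 partner, 1 to 3 regulator and 13 to 20 granule genes. Among the neighbours 0 were called under every setting run, with 7 to 10 tested. The causes of these moves were not tested. Under some settings fewer libraries or genes entered the fit.

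Replicate numbers were shared by replicates 1 and 2 of both groups, but same-numbered libraries hardly deviated together (correlations 0.058 and 0.068). The replicate block raised the genes called to 1454, of which 1087 were also called without it, and pathway genes became 2 and alternative activation genes 3. The 2 BcorWT libraries limit every comparison, and with 1 of them left the lone library is assumed to vary like the other group. Chil5 and Chia1 lie near the detection limit.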

Other observations

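Within BcorWT the members split between the 2 libraries, a pattern noticed after the values were seen and not tested. Chil3 and Chil4 were higher in replicate 2, by 1.27-fold and 4.05-fold. Chil1 and Chil5 were higher in replicate 1, by 1.68-fold and 2.56-fold. Of the 37 granule and neutrophil maturation genes, 18 were higher in replicate 1 and 19 in replicate 2. Among the 18, and picked for their size, Retnlg was at 828 against 259 CPM, Mmp8, the neutrophil collagenase, at 803 against 276 CPM, and Mmp9, gelatinase B, at 1397 against 659 CPM. These libraries also stood further apart than any pair of BcorΔE9-10 libraries, with a chi-square per gene of 11.1 against 5.94 to 6.84.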
